A study of Rattus norvegicus with 28 samples.

Results

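The 108 genes described here are those whose RNA fell within 1 h of raised cAMP in INS-1, an insulin-secreting rat insulinoma line that serves as a beta cell model. They were selected on 6 libraries of wild-type (WT) cells: a gene entered when its mean log2(TPM + 1) was lower than in untreated cells by at least 0.585, which is 1.5-fold, both after 1 h of Exendin-4 and after 1 h of forskolin. TPM is a transcript's share of a library, corrected for its length. A filter kept the 10275 genes whose TPM averaged 1 or more over the 28 libraries. That mean can be reached through WT libraries alone, so a gene near 0 in the other genotype could pass. Of the 10275 genes, 120 passed the Exendin-4 criterion, 512 passed the forskolin criterion and 108 passed both. The group is thus 1.05% of the genes tested. It is defined on a scale with a pseudocount of 1 TPM and without rescaling, and it held 192 genes with a pseudocount of 0.1 and 69 after each library was centred on its median.

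The study profiled WT cells and Med14 S983A cells, a CRISPR knock-in in which alanine replaces the serine that the name gives in Med14, the scaffold subunit of the Mediator complex. Each genotype was left untreated (CON) or given 10 nM Exendin-4 (Ex-4) or 10 μM forskolin (FSK) for 1, 8 or 16 h, which makes 14 groups of 2 libraries. The knock-in lines were sorted as single cells, so each descends from 1 clone, and the labels do not say which of the study's independent lines a library came from. They also do not say whether the 2 libraries of a group came from separate cultures, though the paper's methods call the replicates biological. The p-values measure the spread between libraries, which may be technical if a culture was shared. Lower levels in a bulk library cannot tell less RNA in each cell from fewer cells that carry the RNA.

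Ex-4 is a stable agonist of the GLP-1 receptor, which couples through Gs to adenylyl cyclase, and FSK activates adenylyl cyclase directly. The cAMP formed activates protein kinase A, which phosphorylates CREB, a factor best known for switching target genes on within minutes. The RNAs described here moved the other way. The level of an RNA reflects both its synthesis and its decay, which RNA-seq does not separate, and a marked fall within 1 h can be seen only for RNAs that turn over quickly. Genes with short-lived RNAs include many that code for transcription factors, signalling regulators and zinc finger proteins.

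The libraries held 42551133 to 57231981 fragments, except 1 of Med14 S983A at 8 h of FSK with 92635979. Of 12 beta cell markers, 10 were above 1 TPM in every library, among them Ins1 at 33716 to 67834 TPM and Pdx1 at 111 to 409.7 TPM, while Mafa and G6pc2 had no row in the table. Among 21 markers of other pancreatic, endothelial, immune and fibroblast cells, 20 had a row and 1 was above 1 TPM in every library: Gcg, the glucagon gene, at 6.09 to 1345 TPM, beside Irx2, a defining alpha cell factor, at 0 TPM in every library. Med14 itself was measured at 17.2 to 30.0 TPM, and the substitution leaves its RNA in place, so this level does not check the genotype.

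In WT cells, on which the members were selected, their log2 change ran from -0.59 to -2.02 after 1 h of Ex-4 with a median of -0.70, and from -0.61 to -3.96 after 1 h of FSK with a median of -1.15. The share of all tested genes past 1.5-fold lower was 1.17% for Ex-4 and 4.98% for FSK, and these values only describe the selection. In 101 of the 108 members the WT fall was larger after FSK than after Ex-4. The last genes inside the threshold were Rbm43, S100pbp and Adat1, at -0.59 after Ex-4, and the first outside were Mir3064, Zfp90 and Mob3c, at -0.58.

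The rule was also applied to each replicate alone, and the genes so chosen were measured in the other replicate. All these libraries entered the selection of the members, so the values describe how the rule repeats and do not test the members. When the genes were chosen on replicate 1 alone, 120 passed, and in replicate 2 they had a median change of -0.65 after Ex-4 and -1.12 after FSK. All 120 lay below 0 after Ex-4 in replicate 2, and 80 of them (66.7%) passed the threshold again, against 1.43% of all genes in that replicate. For FSK 113 of the 120 passed again (94.2%), against 5.42% of all genes. Chosen on replicate 2 instead, 134 genes passed, and in replicate 1 82 of them (61.2%, against 1.29% of all genes) passed for Ex-4 and 119 (88.8%, against 5.0%) for FSK.

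The deepest fall was that of Txnip (NM_001008767, rn6 chromosome 2, 198683168 to 198686968, plus strand), which codes for thioredoxin-interacting protein, an alpha-arrestin that is induced by glucose and restrains glucose uptake. It was the most abundant member, at 329 and 312 TPM in the WT CON libraries. After 1 h it stood at 80.8 and 75.4 TPM with Ex-4 and at 19.7 and 19.5 TPM with FSK. The fall on the log2(TPM + 1) scale was 2.02 with Ex-4 and 3.96 with FSK.

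Next came Klf6 (NM_031642, chromosome 17, 67895923 to 67904918, minus strand), a Krüppel-like zinc finger factor of the immediate-early type. Its 2 WT CON libraries measured 31.6 and 32.8 TPM, those at 1 h of Ex-4 11.2 and 10.8 TPM, and those at 1 h of FSK 5.46 and 5.13 TPM. Exo5, a single-strand DNA exonuclease, went from 10.3 and 11.2 TPM to 4.95 and 4.83 TPM with Ex-4 and to 2.27 and 1.96 TPM with FSK. Kctd11, an adaptor of the cullin-3 ubiquitin ligase, went from 7.42 and 7.40 TPM to 2.98 and 2.85 TPM with Ex-4 and to 1.93 and 1.39 TPM with FSK.

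Of the 20 members with the largest mean WT fall among those with at least 5 TPM in CON, the others were Sall2, Bbs10, Phlda1, Dnajc28, Klf10, Zfp956, Dact2, Mir25, Rsrp1, RGD1566386, Eid2b, Zbtb3, Dph2, Ier5, Kctd7 and Rwdd3, with mean log2 changes over both agents of -1.37 (Sall2) to -1.09 (Rwdd3). Levels in WT CON had a median of 11.1 TPM over the members, and the most abundant after Txnip were Anks4b at 147 and 153 TPM, Tmem215 at 108 and 99.8 TPM, Gadd45a at 80.6 and 84.5 TPM and Klf10 at 81.2 and 77.6 TPM. The 4 microRNA hairpin entries among the members (Mir25, Mir27b, Mir186 and Mir331) rested on 1.5 to 19.5 fragments per library in the WT CON and 1 h groups. Reads over such an entry come from any transcript that crosses it, and mature microRNAs were not measured.

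**Figure D1:**
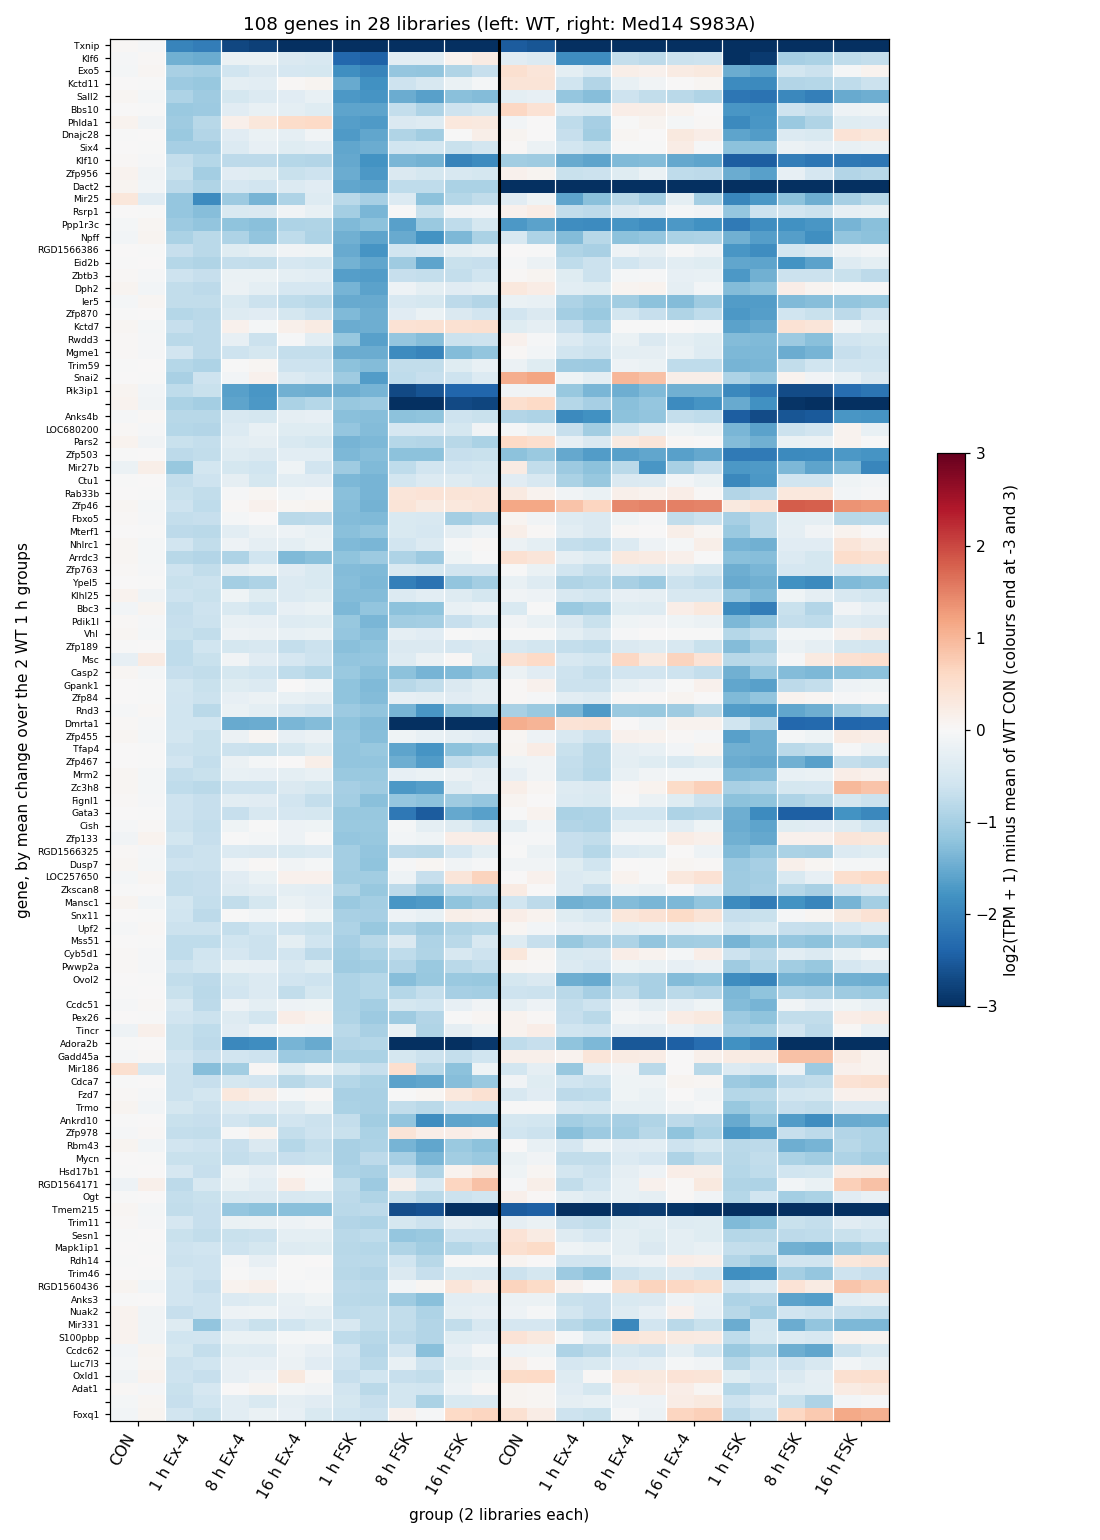
Heat map of the 108 members (rows, ordered by the mean change over the 2 WT 1 h groups) in the 28 libraries (columns, 2 per group; WT left and Med14 S983A right of the black line), coloured by log2(TPM + 1) minus the mean of WT CON, with colours ending at -3 and 3. The 1 h columns of both genotypes are blue in nearly every row, Dact2 and Txnip are dark in all Med14 S983A columns, and Zfp46 is red in Med14 S983A CON.

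The promoters of the 3 strongest fallers that had an entry among the RefSeq promoter sequences are printed here, to show the sequence at the starts of genes that fell together. They are read 5′ to 3′ on the strand of the gene, from 250 bases before to 50 bases after the start, in the build GRCr8. Capitals mark matches, on either strand, to the CRE (TGACGTCA), its short CRE core (TGACG), which the full site also contains, the CCAAT box (CCAAT), the E-box (CACGTG), the GC box (GGGCGG) and the TATA box (TATAAA).
Klf6 (chr17:69458429-69458728, minus strand): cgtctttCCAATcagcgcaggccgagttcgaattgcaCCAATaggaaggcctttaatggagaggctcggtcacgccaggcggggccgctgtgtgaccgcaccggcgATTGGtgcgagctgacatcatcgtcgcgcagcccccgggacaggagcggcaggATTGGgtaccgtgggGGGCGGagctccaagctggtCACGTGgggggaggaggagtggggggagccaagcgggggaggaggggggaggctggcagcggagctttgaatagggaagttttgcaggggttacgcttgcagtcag
Exo5 (chr5:139782914-139783213, minus strand): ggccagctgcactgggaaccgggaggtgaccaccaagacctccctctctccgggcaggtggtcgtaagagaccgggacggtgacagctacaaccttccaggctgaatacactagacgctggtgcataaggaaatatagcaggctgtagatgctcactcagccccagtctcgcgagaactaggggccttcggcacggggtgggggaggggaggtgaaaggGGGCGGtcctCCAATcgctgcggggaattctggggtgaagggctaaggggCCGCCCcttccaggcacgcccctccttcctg
Kctd11 (chr10:55103406-55103705, minus strand): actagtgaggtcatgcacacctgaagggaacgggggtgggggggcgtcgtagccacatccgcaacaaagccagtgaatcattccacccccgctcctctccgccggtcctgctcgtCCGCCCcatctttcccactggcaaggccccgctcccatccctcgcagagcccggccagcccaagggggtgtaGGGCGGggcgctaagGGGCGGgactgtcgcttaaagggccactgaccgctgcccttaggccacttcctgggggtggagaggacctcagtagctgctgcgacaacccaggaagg

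The Klf6 promoter held 4 CCAAT boxes, 1 E-box and 1 GC box, that of Exo5 1 CCAAT box and 2 GC boxes, and that of Kctd11 3 GC boxes. None of the 3 windows held a CRE or its short CRE core, which says only that these letters are absent there. Over the 72 members with an entry, 2.78% held the full CRE, against 3.39% of the 7842 tested genes with an entry, and 20.8% held the short CRE core, against 33.9%. A CCAAT box was present in 48.6% of the members and 37.7% of all, an E-box in 6.94% and 9.77%, a GC box in 69.4% and 65.0%, and a TATA box in 5.56% and 6.11%. The median GC content of these windows was 62.0% in the members and 61.7% in the other genes. Txnip and Sall2 had no entry.

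The members were then followed in the Med14 S983A libraries, none of which entered the selection. Each group was compared with Med14 S983A CON by limma, with calls at a Benjamini-Hochberg adjusted p below 0.05 together with a change of over 1.5-fold. After 1 h of Ex-4, 51 of the 108 members were called lower and 0 higher, where 1.00% of all genes were called lower and 2.03% higher. In the limma fit 107 members lay below 0, where the median of all genes was itself -0.04 and their share below 0 is not given. By edgeR 61 members were lower and 0 higher, where 1.62% of all genes were lower and 2.46% higher. After 1 h of FSK, 100 members were called lower and 0 higher, where 7.20% of all genes were called lower and 3.19% higher. The median change of the members was -0.58 with Ex-4, against -0.04 over all genes, and -1.16 with FSK, against -0.11. Both Ex-4 libraries lay below both CON libraries for 103 members (38.5% of all genes), and both FSK libraries for 105 (57.2%). The 2 comparisons share the CON libraries.

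Txnip again fell furthest. It measured 55.9 and 52.9 TPM in Med14 S983A CON, 8.95 and 9.45 TPM at 1 h of Ex-4 and 3.02 and 2.55 TPM at 1 h of FSK. It fell by 2.44 ± 0.08 (SE, adjusted p = 7.6e-18) with Ex-4 and by 3.87 ± 0.08 (adjusted p = 1.4e-22) with FSK on the log2 scale. Klf6 went from 25.4 and 23.8 TPM to 8.05 and 8.07 TPM with Ex-4 and 2.87 and 3.54 TPM with FSK. Its log2 change was -1.50 ± 0.06 (adjusted p = 7.9e-16) and -2.61 ± 0.06 (adjusted p = 2e-21). Bbs10, a chaperonin-like protein of the BBSome pathway, fell by 2.29 ± 0.08 with FSK (adjusted p = 1.3e-18), from 12.2 and 10.5 TPM to 1.54 and 1.51 TPM.

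**Figure D2:**
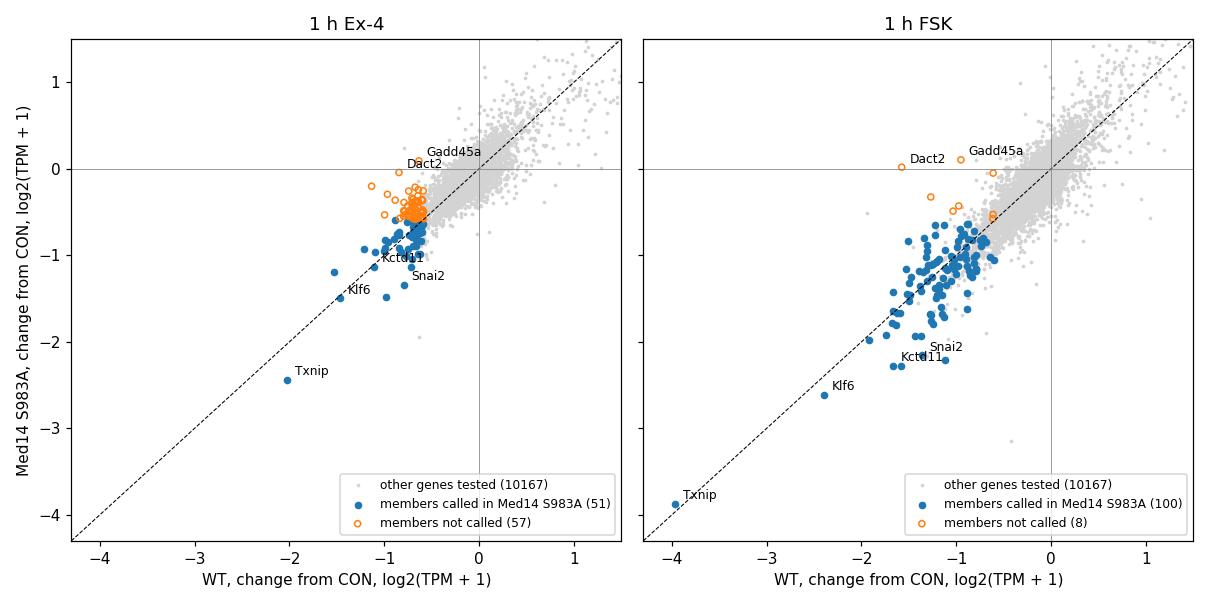
Change from CON on the log2(TPM + 1) scale at 1 h of Ex-4 (left) and of FSK (right), with WT on the x axis and Med14 S983A on the y axis. Each point is a gene, the dashed line marks equal change, and the axes leave out a few genes that are not members. Blue members were called lower in Med14 S983A (51 and 100), open orange members were not called (57 and 8), and Gadd45a and Dact2 lie at or above 0 on the y axis of the FSK plot.

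The 8 members that were not called after 1 h of FSK in Med14 S983A included Dact2, Fzd7, Gadd45a, Ppp1r3c, Upf2, Mir186 and Mir331. Gadd45a, a stress-induced inhibitor of the cell cycle, is the clearest of these, because its level was high in both genotypes. In WT it went from 80.6 and 84.5 TPM in CON to 55.0 and 50.7 TPM with Ex-4 and 42.3 and 42.0 TPM with FSK. In Med14 S983A it measured 91.3 and 91.6 TPM in CON, 89.6 and 106 TPM with Ex-4 and 98.6 and 98.0 TPM with FSK. Its log2 change there was 0.09 ± 0.06 with Ex-4 (adjusted p = 0.31) and 0.10 ± 0.06 with FSK (adjusted p = 0.17), and the latter became -0.10 when libraries were scaled on the ERCC spike-ins. Dact2, a Dishevelled-binding protein of Wnt signalling, was near 0 before treatment: it was at 64.3 and 58.2 TPM in WT CON and at 0.040 and 0.106 TPM in Med14 S983A CON. Ppp1r3c, a glycogen-targeting subunit of protein phosphatase 1, had a mean of 3.77 TPM in WT CON and 0.502 TPM in Med14 S983A CON. Upf2, a factor of nonsense-mediated RNA decay, measured 11.3 and 10.2 TPM in Med14 S983A CON and 7.09 and 7.64 TPM with FSK, a log2 change of -0.49 ± 0.07 (adjusted p = 4.9e-06) that stayed inside the fold limit.

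The rule that selected the members, applied to the Med14 S983A libraries instead, gave 102 genes, of which 51 were members. That is 47.2% of the members and 50% of the Med14 S983A genes. The fall was smaller in Med14 S983A than in WT for 76 of the 108 members with Ex-4 and for 48 with FSK. The WT values were the ones selected on, so no test of this difference is given. The median of the difference, Med14 S983A minus WT, was 0.10 with Ex-4 and -0.05 with FSK. The reverse choice also gave smaller falls in the genotype not chosen on. The 102 genes chosen in Med14 S983A had a median change with Ex-4 of -0.73 there and -0.61 in WT. With FSK their medians were -1.25 in Med14 S983A and -0.997 in WT. How far the choice of genes shaped the counts of smaller falls and of shared genes was not tested.

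Ex-4 and FSK could be compared directly at 1 h in Med14 S983A. Here 52 members were higher with Ex-4 than with FSK and 0 were lower, where 1.45% of all genes were called higher and 1.58% lower. In 105 of the 108 members the level was higher with Ex-4, by a median of 0.57 on the log2 scale against 0.08 over all genes. Scaling with the ERCC spike-ins in DESeq2 gave 83 members higher, where 6.29% of all genes were higher and their median was 0.28. The largest differences were those of Txnip at 1.43 ± 0.08 (adjusted p = 1.2e-12), Bbs10 at 1.32 ± 0.08 (adjusted p = 6.5e-13) and Exo5 at 1.16 ± 0.08 (adjusted p = 6.6e-11). Exo5 measured 8.56 and 7.38 TPM with Ex-4 and 3.17 and 2.84 TPM with FSK. Rsrp1, an arginine and serine rich nuclear protein, did not pass: its level was 34.4 and 32.9 TPM with Ex-4 and 25.4 and 36.9 TPM with FSK, and the FSK libraries spanned the Ex-4 ones (difference 0.13 ± 0.14, adjusted p = 0.53). The doses of the 2 agents are not matched by any common measure, so the comparison holds for 10 nM Ex-4 and 10 μM FSK.

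**Figure D3:**
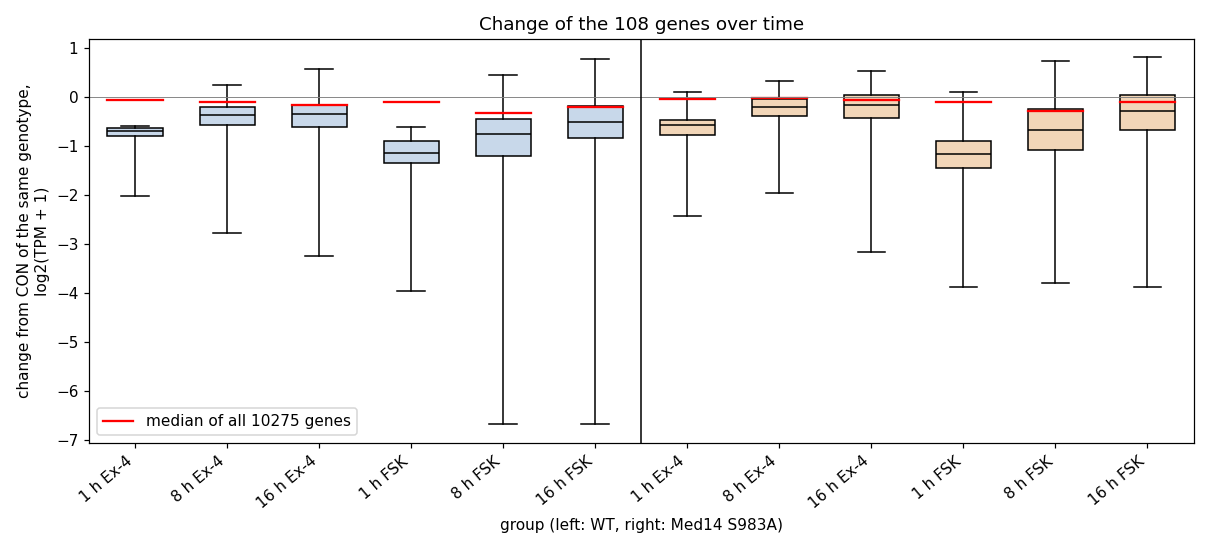
Change of the 108 members from CON of the same genotype in each treated group, on the log2(TPM + 1) scale, with WT boxes on the left and Med14 S983A boxes on the right; boxes span the quartiles, whiskers the full range, and red lines give the median of all 10275 genes. The members' median lies below the red line in all 12 groups and is furthest from it at 1 h.

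After 1 h most members moved back towards CON. In WT the median change was -0.36 at 8 h and -0.36 at 16 h of Ex-4, and -0.75 at 8 h and -0.51 at 16 h of FSK. With no test, since WT CON was selected on, 22 members were past 1.5-fold lower at 8 h of Ex-4 (6.0% of all genes), 65 at 8 h of FSK (34.8%), 29 at 16 h of Ex-4 (8.30%) and 49 at 16 h of FSK (24.2%). In Med14 S983A, 14 members were called lower and 0 higher at 8 h of Ex-4, where 3.09% of all genes were lower and 3.21% higher. At 16 h of Ex-4 15 were lower and 0 higher, where 7.15% of all genes were lower and 4.73% higher. DESeq2 with ERCC size factors called 26 lower and 0 higher at that time, where 12.7% of all genes were lower and 4.40% higher.

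FSK at later times moved a large part of all genes, so the members' counts have to be read against that. In Med14 S983A at 8 h, 59 members were called lower and 3 higher, where 34.5% of all genes were lower and 11.6% higher. The median of all genes was -0.28 in that comparison and that of the members -0.68. After each library was centred on its median, 38 members were lower and 5 higher, where 21.5% of all genes were lower and 21.7% higher. At 16 h 34 members were lower and 4 higher, where 21.1% of all genes were lower and 12.2% higher. This split became 25 lower and 9 higher with ERCC scaling, where 13.8% of all genes were lower and 20.4% higher and their median was 0.12. With median-centring it was 26 lower and 7 higher, where 15.7% of all genes were lower and 17.1% higher.

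In WT 17 members were lower at 16 h than at 1 h of Ex-4 and 20 were lower at 16 h than at 1 h of FSK. These counts have no test, since the 1 h libraries were selected on. Tmem215, a membrane protein, went in WT from 108 and 99.8 TPM in CON to 15.6 and 16.1 TPM at 8 h and 9.61 and 8.90 TPM at 16 h of FSK. In Med14 S983A it went from 17.7 and 18.1 TPM to 3.96 and 4.09 TPM at 16 h of FSK (-1.91 ± 0.08, adjusted p = 2.6e-17). Adora2b, the Gs-coupled adenosine A2B receptor, went in WT from 43.4 TPM in both CON libraries to 3.71 and 2.96 TPM at 8 h of FSK. In Med14 S983A it fell from 25.3 and 26.4 TPM to 1.99 and 1.76 TPM (-3.22 ± 0.08, adjusted p = 9.5e-22). Dmrta1, a DM domain transcription factor, stood at 73.8 and 70.1 TPM in Med14 S983A CON and at 5.78 and 5.86 TPM at 16 h of FSK (-3.42 ± 0.07, adjusted p = 1.9e-23). Pik3ip1, an inhibitor of PI3-kinase, measured 6.95 and 6.09 TPM in WT CON and 0.152 and 0.246 TPM at 8 h of FSK. Txnip ended at 33.1 and 32.8 TPM with Ex-4 and at 1.92 and 2.33 TPM with FSK at 16 h in WT.

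Others returned to CON or above it in some groups. Klf6 was at 34.6 and 38.1 TPM at 16 h of FSK in WT, above its CON libraries of 31.6 and 32.8 TPM. At 16 h of Ex-4 in WT its mean was still lower, at 23.3 TPM. In Med14 S983A its 16 h means were 20.4 TPM with Ex-4 and 18.8 TPM with FSK, against 24.6 TPM in CON. Phlda1, a pleckstrin homology-like protein linked to cell death and growth signalling, was at 24.5 and 25.2 TPM at 16 h of Ex-4 in WT against 17.6 and 15.3 TPM in CON. Its mean at 16 h of FSK in WT was 20.5 TPM. In Med14 S983A its 16 h means were 16.3 TPM with Ex-4 and 12.65 TPM with FSK, against 15.9 TPM in CON. The 3 members called higher at 8 h of FSK in Med14 S983A were Gadd45a (0.73 ± 0.06, adjusted p = 4.1e-11), Kctd7 (0.72 ± 0.08, adjusted p = 5e-09) and Zfp46 (0.64 ± 0.07, adjusted p = 1.4e-08). Gadd45a measured 153 and 152 TPM there. With ERCC scaling Zfp46 changed by 0.55 and was not called. The 4 members called higher at 16 h of FSK in Med14 S983A were Zc3h8, Foxq1, RGD1564171 and Cdca7, of which Zc3h8, a CCCH zinc finger protein, went from 22.3 and 20.5 TPM to 39.7 and 36.8 TPM (0.81 ± 0.06, adjusted p = 1.6e-11).

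**Figure D4:**
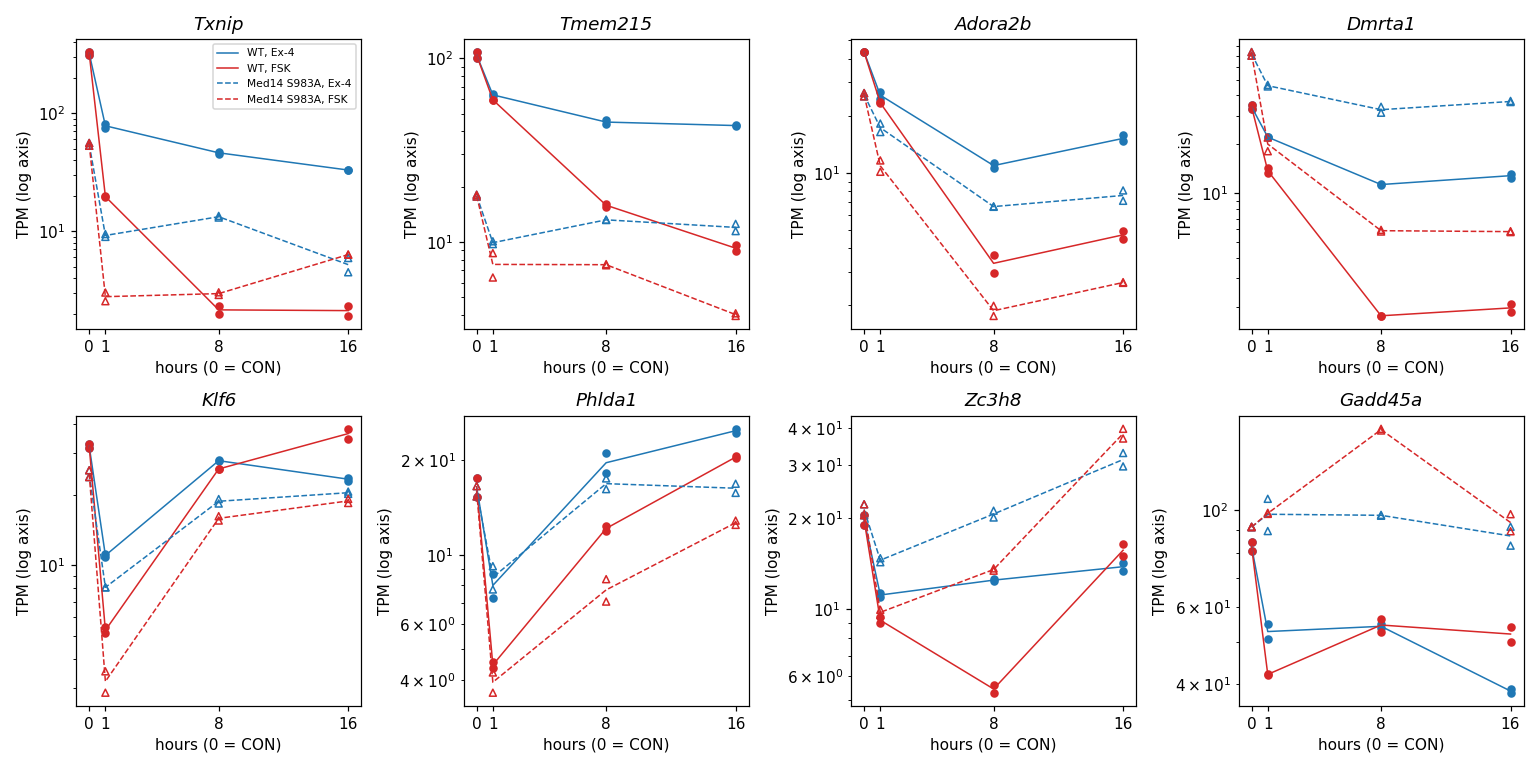
TPM of 8 members (log axis, a scale of its own in each panel) against hours of treatment, where 0 h is CON; filled circles and solid lines are WT, open triangles and dashed lines Med14 S983A, blue is Ex-4 and red is FSK, points are the 2 libraries and lines join their means. Txnip, Tmem215, Adora2b and Dmrta1 stayed below CON to 16 h, Klf6 and Phlda1 returned towards it, and Gadd45a lay below CON at 1 h in WT but not in Med14 S983A.

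Times 8 and 16 h could be compared in WT without the libraries selected on. With Ex-4, 3 members were lower and 2 higher at 16 h than at 8 h, where 3.49% of all genes were lower and 2.08% higher. Fbxo5, an inhibitor of the anaphase-promoting complex, went from 45.7 and 47.9 TPM at 8 h to 26.7 and 27.1 TPM at 16 h (-0.78 ± 0.06, adjusted p = 2.2e-10). Pex26, of the peroxisome biogenesis machinery, rose from 10.9 and 9.55 TPM to 16.6 and 15.7 TPM (0.62 ± 0.08, adjusted p = 3e-07). The split was 1 lower and 5 higher with ERCC scaling (1.78% and 4.82% of all genes), 2 and 4 with median-centring (2.66% and 2.95%), and 2 and 9 with ERCC size factors in DESeq2 (2.67% and 6.52%). With FSK, 1 member was lower and 20 were higher at 16 h than at 8 h, where 3.62% of all genes were lower and 14% higher, a background close to the members' own share. Zc3h8 rose from 5.28 and 5.59 TPM to 14.97 and 16.4 TPM (1.37 ± 0.06, adjusted p = 2.2e-15), and Tmem215 fell from 15.6 and 16.1 TPM to 9.61 and 8.90 TPM (-0.72 ± 0.08, adjusted p = 1.2e-08). ERCC scaling gave 0 lower and 53 higher, where 36.9% of all genes were higher and their median was 0.46. Median-centring gave 3 lower and 14 higher, where 5.92% of all genes were lower and 8.57% higher. Tmem215 was not called with ERCC scaling (-0.37).

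The genotypes were compared at CON and at 16 h. At CON, with no test since WT CON was selected on, 14 members were past 1.5-fold lower in Med14 S983A and 4 past it higher, where 11.2% of all genes were lower and 8.29% higher. At 16 h of Ex-4 12 members were called lower in Med14 S983A than in WT and 12 higher, where 10.2% of all genes were lower and 10.6% higher. At 16 h of FSK 13 were lower and 11 higher, where 11.7% of all genes were lower and 11.6% higher. ERCC scaling changed the Ex-4 split to 20 lower and 8 higher, where 17.1% of all genes were then lower and 6.70% higher. ERCC size factors in DESeq2 changed the FSK split to 14 lower and 20 higher, where 11.9% of all genes were lower and 15.5% higher.

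Dact2 differed most, at 45.9 and 48.3 TPM in WT and 0.062 TPM in both Med14 S983A libraries at 16 h of Ex-4 (-5.50 ± 0.07). Its highest Med14 S983A group mean was 0.0875 TPM, so it passed the TPM filter and the rule through WT alone. Members had to be expressed in WT but not in Med14 S983A, so the difference of Dact2 is given as a description. Txnip was lower in Med14 S983A at 16 h of Ex-4, with 5.93 and 4.49 TPM against 33.1 and 32.8 TPM (-2.46 ± 0.08, adjusted p = 1.6e-18), and higher at 16 h of FSK, with 6.32 and 6.34 TPM against 1.92 and 2.33 TPM (1.23 ± 0.08, adjusted p = 1.7e-12). Tmem215 was lower at 16 h of Ex-4, with 12.5 and 11.5 TPM against 43.0 TPM in both WT libraries (-1.76 ± 0.08, adjusted p = 2.7e-16). Dmrta1 was higher, with 37.0 and 36.4 TPM against 12.4 and 13.2 TPM (1.45 ± 0.07, adjusted p = 1.2e-15), as was Cdca7, a cell-cycle gene, at 16 h of FSK, with 27.4 and 28.5 TPM against 7.72 and 8.79 TPM (1.65 ± 0.07, adjusted p = 1.7e-16). At CON, with no test, the genotype difference was already -5.86 for Dact2, -2.54 for Txnip, -2.47 for Tmem215 and 1.06 for Dmrta1. For Cdca7 it was -0.24. Some of the genes called at 16 h lie in stretches of the rn6 genome where neighbours differed in the same direction. For 7 of the 24 members called at 16 h of Ex-4, against 12 of all 108, the median genotype difference over the 25 tested genes on each side was above 0.3 in size. It was -0.97 around Zfp503, 0.55 around Exo5 and 0.35 around Dmrta1, but -0.14 around Dact2 and 0.01 around Txnip. The part of these stretches in the differences was not tested.

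The change from 8 to 16 h was also compared between genotypes. With Ex-4, 2 members changed more downward in Med14 S983A and 1 more upward, where 1.00% of all genes did the former and 1.69% the latter. Txnip went from 13.5 and 13.05 TPM at 8 h to 5.93 and 4.49 TPM at 16 h in Med14 S983A and from 47.3 and 45.0 TPM to 33.1 and 32.8 TPM in WT, and the difference of the 2 changes was -0.74 ± 0.12 (adjusted p = 5.7e-05). It was -0.57 and not called without replicate 2 of Med14 S983A at 16 h. ERCC scaling gave 7 downward and 1 upward, where 7.65% of all genes went downward and 0.613% upward and their median was -0.27. With FSK, 4 members changed more downward and 4 more upward, where 3.67% of all genes did the former and 5.42% the latter. Txnip went in Med14 S983A from 3.04 and 2.88 TPM to 6.32 and 6.34 TPM and went from 2.32 and 1.99 TPM to 1.92 and 2.33 TPM in WT (0.90 ± 0.12, adjusted p = 1.2e-06).

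The members were grouped by 12 gene lists, which held 59 of the 108. The lists were written with earlier results of these data known. Their counts, here and below, therefore describe the lists and do not test them. The list of Txnip, arrestin-domain and glucose-sensing genes had 12 tested genes and 5 members: Txnip, Arrdc3, an alpha-arrestin, Pik3ip1, Ppp1r3c and Ogt, the enzyme that attaches O-linked N-acetylglucosamine to proteins. Of the 12, 5 were called lower and 0 higher after 1 h of Ex-4 in Med14 S983A, and 8 lower and 0 higher after 1 h of FSK, with medians of -0.46 and -0.92 against -0.04 and -0.11 over all genes. Of all genes 1.00% were called lower and 2.03% higher with Ex-4, and 7.20% lower and 3.19% higher with FSK. Arrdc3 measured 17.5 and 16.3 TPM in Med14 S983A CON and 4.67 and 4.55 TPM at 1 h of FSK (-1.67 ± 0.09, adjusted p = 3.3e-14). Ogt went from 37.7 and 34.6 TPM to 18.1 and 22.004 TPM (-0.83 ± 0.07, adjusted p = 7.6e-10).

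The beta cell and developmental list had 30 tested genes, of which 10 were members, among them Gata3, Snai2, Six4, Sall2, Foxq1, Ovol2, Mycn and Tfap4. In Med14 S983A 9 of the 30 were called lower and 3 higher at 1 h of Ex-4, and 15 lower and 5 higher at 1 h of FSK, beside 1.00% and 2.03% of all genes for Ex-4 and 7.20% and 3.19% for FSK. Ovol2, a zinc finger repressor that helps to keep the epithelial state, fell there from 39.0 and 42.3 TPM to 20.03 and 19.4 TPM with Ex-4 (-1.01 ± 0.06, adjusted p = 3.8e-13). Gata3, a GATA factor, fell from 12.8 and 14.008 TPM to 4.10 and 2.76 TPM with FSK (-1.72 ± 0.11, adjusted p = 8.4e-13). Tfap4, a basic helix-loop-helix factor, fell from 30.8 and 34.1 TPM to 10.0 TPM in both FSK libraries (-1.60 ± 0.08, adjusted p = 3.7e-15). Of 13 Krüppel-like factors tested, Klf6 and Klf10 were members, and 6 were lower and 3 higher at 1 h of FSK in Med14 S983A. Klf10, a TGF-beta-inducible factor, measured 38.1 and 37.5 TPM in CON and 13.5 TPM in both FSK libraries.

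Zinc finger genes found by symbol (Zfp, Znf, Zbtb, Zkscan and Zscan) numbered 192 among the genes tested. Of these 13 were members (6.77%, against 1.05% of all genes): Zbtb3, Zfp133, Zfp189, Zfp455, Zfp46, Zfp467, Zfp503, Zfp763, Zfp84, Zfp870, Zfp956, Zfp978 and Zkscan8. Their reads may be shared with near-identical copies in such families, so single values are uncertain. After 1 h of FSK in Med14 S983A 87 of the 192 were called lower and 6 higher, with a median of -0.55 against -0.11 over all genes, and after Ex-4 9 were lower and 3 higher, with a median of -0.20 against -0.04. The called shares of all genes were 7.20% lower and 3.19% higher with FSK, and 1.00% lower and 2.03% higher with Ex-4. Zfp956 fell from 14.8 and 14.2 TPM to 4.08 and 3.67 TPM with FSK (-1.67 ± 0.10, adjusted p = 2.5e-13), and Zfp467 from 29.3 and 29.6 TPM to 10.8 and 10.4 TPM (-1.39 ± 0.07, adjusted p = 3.8e-14).

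Another list held mainly genes that modify tRNA and ribosomal RNA or handle mitochondrial RNA, with 45 tested. Its 8 members were Adat1, Ctu1, Dph2, Mgme1, Mrm2, Mterf1, Pars2 and Trmo. Dph2, which acts on a protein, and Mgme1, which acts on mitochondrial DNA, were on this list although they do neither. At 1 h in Med14 S983A 6 of the 45 were lower and 0 higher with Ex-4, and 22 lower and 2 higher with FSK. Of all genes 1.00% were lower and 2.03% higher with Ex-4, and 7.20% lower and 3.19% higher with FSK. The median of the 45 with FSK was -0.58, against -0.11 over all genes. Dph2, of the diphthamide pathway that modifies elongation factor 2, went from 31.3 and 29.6 TPM to 9.62 and 10.1 TPM with FSK (-1.53 ± 0.07, adjusted p = 3.7e-15). Mrm2, a methyltransferase of mitochondrial ribosomal RNA, went from 20.4 and 22.3 TPM to 9.05 and 9.15 TPM and was back at 20.7 and 20.8 TPM at 8 h of FSK. Mgme1, an exonuclease of mitochondrial DNA, went from 24.8 and 22.8 TPM to 8.95 and 8.92 TPM at 1 h and stayed at 8.01 and 8.62 TPM at 8 h. The call of Mgme1, Mrm2 and Dph2 at 1 h of Ex-4 was lost in DESeq2 (-0.55, -0.58 and -0.56), with median-centring (-0.54, -0.56 and -0.56) and without replicate 2 of that group (-0.56, -0.56 and -0.58), each inside the fold limit.

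The p53 and growth arrest list had 27 tested genes and 6 members (Bbc3, Gadd45a, Sesn1, Casp2, Phlda1 and Ier5). At 1 h in Med14 S983A 5 were lower and 6 higher with Ex-4, where 1.00% of all genes were lower and 2.03% higher, and 5 lower and 7 higher with FSK, where 7.20% were lower and 3.19% higher. Sesn1, a stress-induced sestrin, fell from 39.5 and 35.3 TPM to 22.3 and 20.5 TPM with Ex-4 (-0.78 ± 0.06, adjusted p = 4.8e-11). Casp2, a caspase, fell from 41.7 and 37.3 TPM to 16.7 and 20.7 TPM with FSK (-1.04 ± 0.08, adjusted p = 2.7e-11). Ier5, an immediate-early response gene, fell from 15.4 and 15.1 TPM to 4.93 and 4.96 TPM with FSK (-1.45 ± 0.08, adjusted p = 5.6e-14). The FOXO target list, which shares Sesn1, Gadd45a and Bbc3 with it and Txnip and Pik3ip1 with the arrestin list, had 25 tested genes and 6 members, and 7 were lower and 4 higher at 1 h of FSK.

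The signalling list had 20 tested genes and 7 members (Dusp7, Nuak2, Rnd3, Pdik1l, Mapk1ip1, Fzd7 and Adora2b), with 4 lower and 0 higher at 1 h of Ex-4 and 17 lower and 0 higher at 1 h of FSK in Med14 S983A, beside 1.00% and 7.20% of all genes lower. In WT the median change of these 20 genes was already -0.55 at 1 h of Ex-4 and -0.82 at 1 h of FSK. Since the list was written with such results known, its counts are no support for a set effect. The counts of the next lists, all at 1 h of FSK in Med14 S983A, stand against the same 7.20% lower and 3.19% higher. Dusp7, a phosphatase of ERK, fell from 13.2 and 13.03 TPM to 6.17 and 6.60 TPM with FSK (-0.94 ± 0.07, adjusted p = 8.2e-11) and was at 16.0 and 14.9 TPM at 8 h. Of 27 splicing and nonsense-mediated decay genes, Rsrp1, Luc7l3 and Upf2 were members, and 6 were lower and 0 higher at 1 h of FSK. Luc7l3, a U1 snRNP-associated protein, went from 86.2 and 79.5 TPM to 43.2 and 50.9 TPM (-0.81 ± 0.09, adjusted p = 5.4e-08). Of 31 replication and cell cycle genes, Cdca7, Fbxo5, Fignl1 and Exo5 were members, and 11 were lower and 1 higher. Cish, a suppressor of cytokine signalling, was the 1 member among 23 interferon and cytokine genes, of which 4 were lower and 3 higher. It fell from 4.20 and 5.11 TPM to 1.303 and 1.16 TPM (-1.34 ± 0.10, adjusted p = 1.2e-11). The 16 circadian clock genes tested held 0 members, with 2 lower and 4 higher at 1 h of FSK.

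The members also shared a feature that the rule did not use. Their exon length had a median of 2137 bases, against 2142 bases in the 10167 other genes, but their span from the first to the last base of the transcript had a median of 8608 bases, against 21029. The quartiles of the spans were 3042 and 15058 bases in the members and 8611 and 50947 bases in the others. Leaving out hairpin entries, 9 of 104 members (8.65%) had a span at most 2 bases longer than their exon length, which was taken as no intron, against 2.17% of 10124 others. These included Anks4b, Eid2b, Foxq1, Fzd7, Ier5, Kctd11, Mapk1ip1 and Nhlrc1. The members' median level in WT CON was 11.1 TPM against 30.3 TPM in the others.

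**Figure D5:**
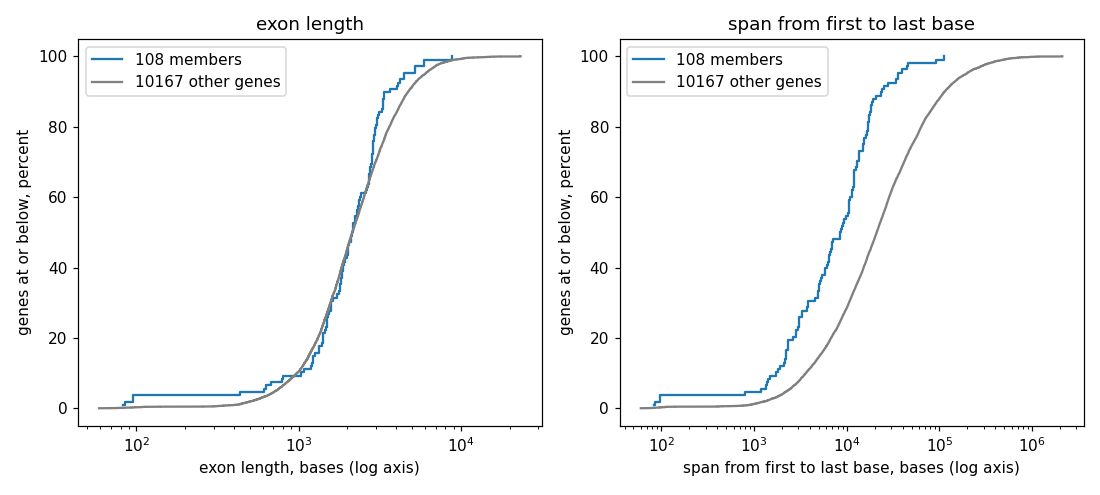
Cumulative share of genes (percent, y axis) by exon length (left) and by the span from the first to the last base of the transcript (right), both in bases on a log axis, for the 108 members (blue) and the 10167 other genes tested (grey). The exon length curves run together, while the span curve of the members lies to the left, with medians of 8608 and 21029 bases.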

How the data were processed

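Bulk RNA-seq of INS-1 cells was analysed from 28 libraries, 2 in each of 14 groups, which were taken from the sample titles. The authors aligned reads to rn6 and the ERCC spike-in sequences with STAR 2.5.3a and made TPM per transcript with HOMER 4.11.1; the deposited TPM were used unscaled. The deposited counts hold the 92 ERCC sequences alone, as reads. With their help the TPM were turned back into fragments per gene (100% of 114296 values were whole reads within 0.05) for the count tests run as alternatives, and the total of these fragments is the depth given in the report.

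One transcript per symbol was used, the one highest on average, and genes averaging 1 TPM or more were tested. The members and the gene lists were chosen with earlier results of these data known. Log2(TPM + 1) was fitted in limma 3.58.1 (R 4.3.3) with 14 group means on 14 residual degrees of freedom, two-sided, with Benjamini-Hochberg adjustment over 10275 genes; a call needs an adjusted p under 0.05 and a fold above 1.5. Fold changes on this scale understate those of low genes. Contrasts with a library of the selection are described without a test. Named genes were the 20 largest falls at 5 TPM or more, the 10 most abundant members, up to 4 per list, 3 on each side of the threshold and up to 3 called in each direction per contrast; the other members that complete a count or a list, and Ppp1r3c and Upf2 with their values, were named after their values were seen. Tested on simulated data for 1 h of FSK in Med14 S983A (10272 genes), the fit recovered 93% of 2-fold and 99% of 3-fold changes with 1 wrong call. Alternatives were other pseudocounts, filters, scalings, samples, a replicate block, leaving out each library, edgeR 4.0.16 and DESeq2 1.42.0; counts without the hairpin entries were added after seeing the data. Spike-ins were added to a fixed mass of RNA, so scaling on them is per mass of RNA and not per cell. Protein sequences were not used here. Some members and markers are not reported here by name, though they stay in the counts and medians.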

Additional observations from a re-analysis of the deposited data

Results flagged for a closer look

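For 8 of the values given here the change from 8 to 16 h differed between Med14 S983A and WT by the limma test of the difference. With Ex-4 these were Txnip (-0.74) and Foxq1 (0.87, a forkhead factor at 1.495 and 1.281 TPM at 8 h and 3.03 and 3.18 TPM at 16 h in Med14 S983A). With FSK they were Nuak2 (-0.65), Gadd45a (-0.63), Kctd7 (-0.59), Txnip (0.90), Cdca7 (0.83) and Eid2b (0.71). Txnip has opposite signs with the 2 agents. The 8 members called with FSK also include Ogt. Leaving out 1 library ended the call of Txnip with Ex-4 (-0.57 without replicate 2 of Med14 S983A at 16 h), of Eid2b (0.46 without replicate 1 of WT at 8 h of FSK) and of Nuak2 (-0.55 without replicate 2 of WT at 8 h of FSK). Gadd45a lost its call without any 1 of 3 libraries (-0.58 to -0.57) and Kctd7 without any 1 of 4 (-0.58 to -0.50).

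Gadd45a at 1 h of FSK moved down in both WT libraries (-0.95 and -0.96 from the CON mean) and up in both Med14 S983A libraries (0.11 and 0.10), a mean change of 0.10 in Med14 S983A. This difference was not tested, since the WT libraries had been used to select the gene, and the Med14 S983A value was -0.10 with ERCC scaling.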

How the results depend on the processing

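The members called lower after 1 h in Med14 S983A stayed in that direction under every alternative run, and their counts moved most with the fold limit. Without it, at an adjusted p alone, the calls numbered 100 at 1 h of Ex-4, 86 between the agents, 59 at 8 h and 58 at 16 h of Ex-4, 85 at 16 h of FSK, 40 and 69 for 16 against 8 h in WT (Ex-4 and FSK), 64 and 71 between genotypes at 16 h, and 17 and 34 for the genotype difference of the 8 to 16 h change. Requiring a mean of at least 5 TPM gave 9 at 8 h of Ex-4, 24 at 16 h of FSK and 15 between genotypes with Ex-4, where fewer members were tested. ERCC scaling gave 53 for 16 against 8 h of FSK in WT and 8 for the genotype difference with Ex-4, and DESeq2 with ERCC size factors gave 65 and 12 there, 83 between the agents, 26 at 16 h of Ex-4 and 11 for 16 against 8 h of Ex-4 in WT. EdgeR gave 5 for the genotype difference with Ex-4. DESeq2 with ERCC size factors called 42.3% of all genes higher and 1.47% lower for 16 against 8 h of FSK in WT. For the genotype difference with Ex-4 it called 10.1% lower and 0.642% higher, and edgeR 2.35% lower and 1.94% higher. Shares of all genes are not given for the counts without the fold limit or at 5 TPM. Those counts are therefore not read as results about the members. The cause of the moves between settings was not tested. The rule itself held 192 genes with a pseudocount of 0.1 and 69 with median-centring.

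The median change at 1 h of Ex-4 was -0.67 with a pseudocount of 0.1, -0.53 with median-centring, -0.58 with ERCC scaling, and -0.56 and -0.55 for members chosen on replicate 1 or 2. At 1 h of FSK it was -1.35, -1.01 and -1.30 under the first 3. Leaving out each library gave 95 to 140 members, medians of -0.63 to -0.55 (Ex-4) and -1.18 to -1.11 (FSK), and these counts: 48 to 66 at 1 h of Ex-4, 98 to 102 at 1 h of FSK, 48 to 58 between the agents, 11 to 14 and 59 to 65 at 8 h (Ex-4 and FSK), 14 to 20 and 35 to 39 at 16 h, 4 to 7 and 18 to 25 for 16 against 8 h in WT, 22 to 27 and 22 to 24 between genotypes, and 2 to 5 and 4 to 10 for the genotype difference. The 5 came without replicate 2 of Med14 S983A at 8 h of Ex-4, the 2 without replicate 2 at 16 h of Ex-4, the 4 without replicate 1 of WT at 8 h of FSK.

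Of 2482 values of named members under an alternative, 2375 kept direction and call, 59 lost a call, 42 gained one and 6 changed sign. The last were small: Dact2 at 1 h of Ex-4 was 0.00536 with median-centring and ran from -0.0883 to 0.000489 without 1 CON library, and at 1 h of FSK from -0.027 to 0.0618. Gadd45a ran from -0.0303 to 0.21 without 1 library at 1 h of Ex-4, and was -0.10 at 1 h of FSK with ERCC scaling and with DESeq2 on ERCC size factors.

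With the replicate number as a block the counts were the same, for example 51 and 100 at 1 h of Ex-4 and FSK. The numbers showed no pairing common to all groups: same-numbered libraries correlated at -0.28 to 0.28 over 91 pairs of groups, with 17 above 0.1. A pairing or batch within some of the groups was not tested. Without the 4 hairpin entries, an alternative chosen after seeing the data, 49 and 98 members were called at 1 h. The planned search of protein sequences was not run. With 2 libraries a group, small differences are not detectable.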
